A study of Sus scrofa with 21 samples.

Results

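Fat absorption and chylomicron assembly were followed through 10 named genes, of which 8 were found among the 18661 genes of the deposited files. The members were APOB, APOA1, APOA4 and APOC3 (apolipoproteins), MTTP (lipid transfer), FABP2 and FABP1 (fatty acid binding), MOGAT2 and DGAT1 (triglyceride synthesis) and PLIN2 (lipid droplets). Their identifiers in the files are ENSSSCG00000008595 for APOB, ENSSSCG00000030921 for APOA1, ENSSSCG00000040689 for APOA4, ENSSSCG00000015069 for APOC3, ENSSSCG00000009179 for MTTP, ENSSSCG00000037272 for FABP2, ENSSSCG00000005918 for DGAT1 and ENSSSCG00000035863 for PLIN2. The members were chosen by name and matched to the pig gene identifiers of the files through a table of gene names. That table held no identifier for FABP1 or MOGAT2, and these were not analysed here. The other 8 all passed the filter on low counts.

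RNA had been sequenced from the distal part of the small intestine in 21 piglets (Danish Landrace/Yorkshire), killed at 24 to 25 days of age. Control piglets (n = 10) had been fed a milk replacer (DI-9224), and the treatment piglets (n = 11, called starch 1 to 11) the same replacer with wheat added as the source of starch. Both groups were therefore milk-fed, and the comparison asks how added starch alters expression in the gut. The labels name tissue and not isolated cells, and give no litter, sex or batch.

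In the absorptive cells of the small intestine, the enterocytes, digested fat is taken up as fatty acids and monoglycerides, carried through the cytoplasm by fatty acid binding proteins and rebuilt into triglyceride at the endoplasmic reticulum. The microsomal triglyceride transfer protein loads that triglyceride onto apolipoprotein B, and the particle, dressed with apolipoproteins A-I, A-IV and C-III, leaves the cell as a chylomicron and enters the lymph. Fat that is not exported waits in cytoplasmic droplets coated by perilipins. In mammals most fat absorption takes place upstream of the ileum.

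Total expected counts per piglet lay between 6719264 and 8610458. FABP6, the ileal bile acid binding protein, lay between 234.0 and 5300 CPM (counts scaled to the size of the library) in 18 piglets, and the hepatocyte markers ALB, FGB, SERPINA1 and TTR summed to at most 1.283 CPM in any piglet, although liver also makes several of these apolipoproteins. The libraries control 5, control 8 and starch 3 stood apart. On the first principal component of the 500 most variable genes, which carried 64% of the variance, they scored 71.04, 70.46 and 78.62, and the other 18 piglets lay between -27.47 and 21.29. The 500 genes include 6 of the members, so the low member values in these libraries are described without a test, and diet estimates are given with and without them. Correlations between members use the other 18. All 3 are separate animals, 2 on control diet and 1 on starch.

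The member genes were among the most abundant of this tissue. By deposited FPKM (a read abundance divided by transcript length and by depth), which allows genes of different length to be compared, APOA1 had a median level of 9179 over the 21 piglets, at the 99.92 percentile of tested genes. It was above FABP2 (2151 FPKM) in all 21 piglets. FABP2 was above APOA4 (493.2 FPKM) in 19 of 21, and APOA4 above APOB (312.8 FPKM) in 18 of 21. The next 4 did not separate beyond their spread, with APOB above APOC3 (245.7 FPKM) in 12 piglets, APOC3 above MTTP (243.1 FPKM) in 14 and MTTP above DGAT1 (188.2 FPKM) in 11 of 21, or 10, 13 and 11 of the 18 without the libraries set apart. PLIN2 was the least abundant at 83.12 FPKM and lay below DGAT1 in 18 of the 21 piglets, the exceptions being control 5, control 8 and starch 3.

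**Figure D1:**
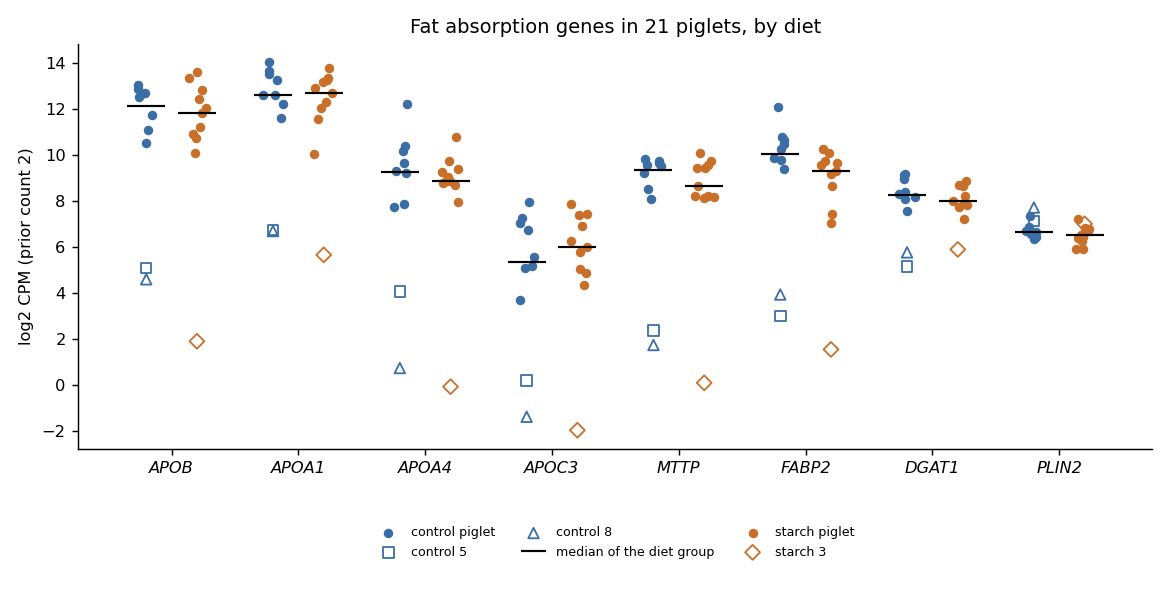
Level of each member in each piglet, as log2 CPM with a prior count of 2, by diet; points are piglets, bars the median of the diet group, and open symbols mark control 5, control 8 and starch 3. For every member except PLIN2 the 3 open symbols lie below all filled points, and the filled points of the diets overlap for all 8 genes.

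In control 5, control 8 and starch 3 the genes of chylomicron assembly were far lower than in the other 18 piglets, and PLIN2 was not. APOB, the structural protein of the chylomicron, was at 33.55, 23.85 and 3.476 CPM in control 5, control 8 and starch 3, and between 1088 and 12384 CPM in the rest (median 4880). The median of the 18 was 145, 205 and 1404 times these values. MTTP, the transfer protein that loads lipid onto APOB, was at 4.879, 3.077 and 0.811 CPM, against 266.8 to 1094 elsewhere, and the median of the 18 was 141, 223 and 848 times higher. In starch 3 these folds rest on 7 counts of MTTP and 30 of APOB, and are imprecise. APOB and MTTP were thus low in the same animals and in the same order, with starch 3 the lowest of the 21 for both.

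The exchangeable apolipoproteins followed. APOA1, the main protein of high density lipoprotein and also carried on chylomicrons, still gave 106.6, 102.7 and 50.05 CPM in the 3 libraries, where the lowest of the other 18 was 1061 CPM. APOA4, an apolipoprotein of chylomicrons made in the intestine during fat absorption, was at 16.43, 1.41 and 0.6952 CPM, against 211.1 CPM or more. Its values in control 8 and starch 3 rest on 11 and 6 counts. APOC3, an inhibitor of lipoprotein lipase, was represented by 9 counts in control 5, 1 count in control 8 and 0 counts in starch 3. Elsewhere APOC3 lay between 12.82 and 243.6 CPM, and with a floor of 3 counts per library the median of the 18 was at least 199-fold higher than in starch 3. In the RefSeq pig annotation (Sscrofa11.1) APOA4, APOC3 and APOA1 are consecutive protein-coding genes, between APOA5 and SIK3.

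The genes inside the enterocyte differed more among themselves. FABP2, the intestinal fatty acid binding protein of the cytoplasm, was at 7.766, 15 and 2.665 CPM, with no other piglet under 132.7 CPM. DGAT1, the acyltransferase that completes triglyceride, was at 35.35, 53.97 and 59.09 CPM, less far from the range of 146.8 to 578.8 CPM in the rest. The median of the 18 was 8.7, 5.7 and 5.2 times those DGAT1 values. PLIN2, which coats lipid droplets in many cell types, did not share the pattern, at 139.8, 209.2 and 127.8 CPM against 59.15 to 161.3 CPM elsewhere. The control 8 value was the highest of all 21 piglets.

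In all, 7 of the 8 members had their 3 lowest values in these 3 libraries, and none had its 3 highest there. Of the 13135 genes tested, 8.12% lay below all other 18 piglets in the 3 libraries and 5.22% above. In a wider list of fat absorption genes, of which 52 of 59 were found and 50 tested, 20 lay below all of the 18 and 2 above. The 20 include SLC27A4 and SLC27A2 (fatty acid uptake and activation), NPC1L1, ABCG5 and ABCG8 (sterol uptake and efflux), SOAT2 (cholesteryl ester synthesis) and CIDEB (lipidation of lipoproteins). Transcriptional regulators that lay below include HNF4A, HNF4G, CREB3L3, GATA6, CDX2, MLXIPL and SREBF1. CREB3L3, which controls apolipoprotein genes in mouse liver and intestine, was at 7.069, 8.077 and 3.476 CPM against 124.3 to 677.5 CPM in the rest. PPARG, a lipid-responsive nuclear receptor, and SEC23B, a coat protein of the vesicles that leave the endoplasmic reticulum, were the 2 above, with PPARG at 22.7, 39.49 and 24.56 CPM.

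Markers of cell types also differed in part in control 5, control 8 and starch 3, some lying below the other 18 piglets and some above. None of the 7 measured general epithelial markers lay below all of the 18, and KRT18 and ESRP1 lay above. KRT18 was at 476.2, 895.9 and 530.8 CPM in control 5, control 8 and starch 3, which is 18.15, 34.14 and 20.23 times the median of the 18, and ESRP1 was 2.61, 2.43 and 1.76 times its median. Of the 5 measured enterocyte markers, VIL1, ANPEP and SI lay below, while CDH17 and KRT20 did not. The summed macrophage markers CD68, CSF1R and CD163 were at 1112, 1140 and 1522 CPM in control 5, control 8 and starch 3, against 86.78 to 485.8 CPM in the 18. Only CD163 lay above all of the 18, at 724.0, 813.4 and 1027 CPM against at most 238.8 CPM. CD68 and CSF1R overlapped with the 18 in part. The 6 smooth muscle markers summed to 20704, 37419 and 23604 CPM, against 5853 to 21194 CPM, so that control 5 lay within that range. Of the 6 only DES lay above all of the 18. Of 4 goblet cell markers MUC2 (778.5, 1168 and 493.9 CPM) and SPDEF lay above all of the 18, where MUC2 reached at most 433.1 CPM. The 2 measured endothelial markers summed to 270.1, 233.5 and 279.7 CPM, against at most 191.3 CPM, with PECAM1 above all of the 18. Of the 2 measured markers of distal position, FABP6 was at 14.94, 40.25 and 0.348 CPM, also below all of the 18. SLC10A2 was not, at 0.398, 0.897 and 0.927 CPM (4, 7 and 8 counts) against 0.289 to 36.31 CPM. The part of these cell types in the member values was not tested. In tissue RNA fewer enterocytes and less RNA per enterocyte cannot be told apart.

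**Figure D2:**
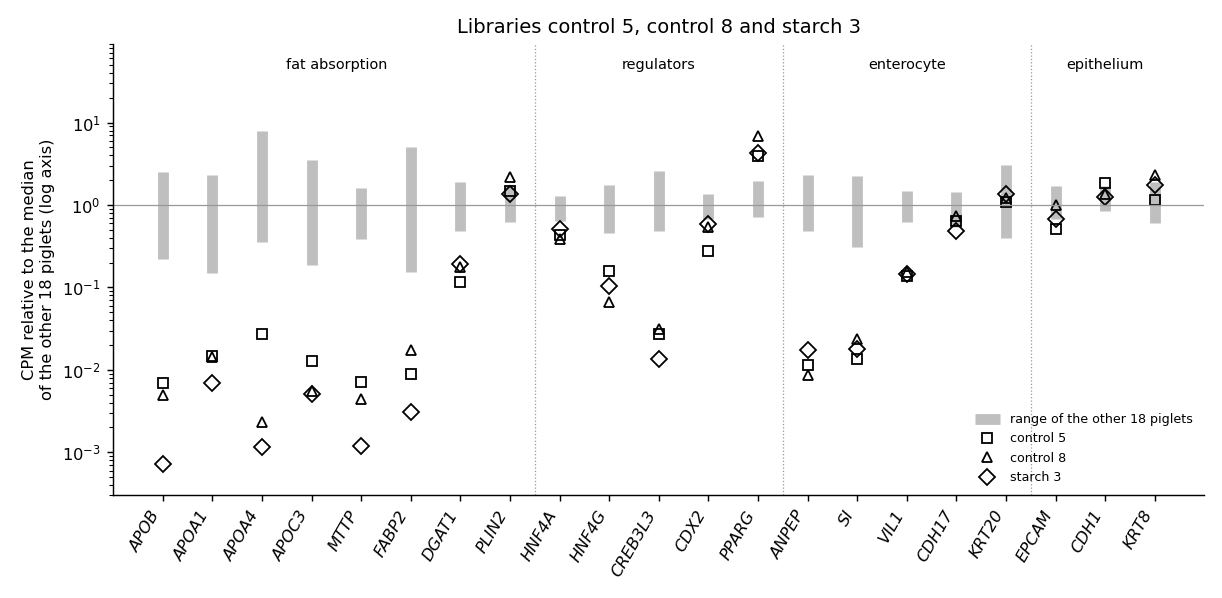
CPM in control 5 (squares), control 8 (triangles) and starch 3 (diamonds) relative to the median of the other 18 piglets, on a log axis; grey bars are the range of those 18. A value of 0 for APOC3 in starch 3 is drawn at the floor of 3 counts, as is the 1 count of control 8. The export genes lie 36 to 1404 times below the median, while PLIN2 and the plotted general epithelial markers EPCAM, CDH1 and KRT8 lie between 0.513 and 2.31 times the median; KRT18 and ESRP1, which lie above the range of the 18, are not plotted.

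The diets were compared with edgeR's quasi-likelihood test on all 21 piglets, adjusted over all tested genes by the Benjamini-Hochberg procedure. None of the 8 members passed an adjusted p of 0.05, where 0.0% of the 13135 genes did, and the smallest adjusted p of any gene was 0.9997. At an unadjusted p under 0.05 there were 0 members and 174 genes (1.32%), and DESeq2 called 0 genes with 191 at that unadjusted level. Of the members 2 had fold changes above 0 and 6 below on starch, with a median log2 fold change of -0.14 beside 0.004 for all genes. Without control 5, control 8 and starch 3, where again 0.0% of 13139 genes were called, 1 member was above 0 and 7 below (median -0.27). Of all 13135 genes 6715 were above 0 and 6420 below in the main fit. Without the 3 libraries 7159 were above and 5925 below of 13084 genes tested in both fits (median 0.02). Genes that vary together do not give independent signs. The p-values measure the spread between piglets, each of which is 1 library.

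Among the apolipoproteins, APOB ranged in the control piglets from 23.85 to 8337 CPM with a median of 4661, and in the starch piglets from 3.476 to 12384 with a median of 3560. The highest 2 piglets of all were on starch (starch 5 and starch 2), and the diets overlapped over nearly their whole range. The log2 fold change of APOB, starch minus control, was 0.13 ± 0.81 (SE; 95% interval -1.55 to 1.81), and -0.04 without the 3 libraries. APOA1 had a median of 6179 CPM on control (102.7 to 16550) and 6628 CPM on starch (50.05 to 13926), with a log2 fold change of -0.15 ± 0.70, and -0.33 without the 3 libraries. The medians and the fitted means of APOA1 thus point in opposite directions.

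APOA4 had a median of 604.6 CPM on control (1.41 to 4668) and 467.7 CPM on starch (0.695 to 1730). A single control piglet, control 6, was at 4668 CPM, and the next control piglet was at 1354 CPM. The log2 fold change of APOA4 was -0.73 ± 0.83 (95% interval -2.44 to 0.99), -0.92 without the 3 libraries and 0.08 without control 6. APOC3 had a median of 40.86 CPM on control (0.128 to 243.6) and 62.83 CPM on starch (0 to 231.1), with a log2 fold change of 0.20 ± 0.80, and 0.02 without the 3 libraries. It was the most variable member among the 18 piglets. MTTP had a median of 655.9 CPM on control (3.08 to 906.9) and 398.8 CPM on starch (0.811 to 1094), with a log2 fold change of -0.04 ± 0.73, and -0.22 without the 3 libraries.

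Among the members FABP2 had the smallest unadjusted p without the 3 libraries, and PLIN2 over all 21 piglets (0.115, edgeR). FABP2 ranged from 7.77 to 4297 CPM with a median of 1065 in the control piglets and from 2.67 to 1208 CPM with a median of 627.6 in the starch piglets. In the 18 piglets, 4 of the 8 controls lay above every starch piglet, and 5 of the 10 starch piglets lay below every control. The log2 fold change was -1.09 ± 0.75 (95% interval -2.63 to 0.46, unadjusted p = 0.159, edgeR), and did not pass. Without control 5, control 8 and starch 3 it was -1.26 ± 0.39 (95% interval -2.08 to -0.44), with an unadjusted p of 0.00449 and an adjusted p of 0.9999, where 2.91% of all genes had an unadjusted p under 0.05. The FABP2 estimate over 21 piglets rested in part on control 2, at 4297 CPM, and was -0.64 without that piglet. At the low end, starch 4 and starch 5 were at 132.7 and 174.3 CPM, under the lowest of the 8 controls at 670.0 CPM.

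DGAT1 had a median of 304.4 CPM on control (35.35 to 578.8) and 253.5 CPM on starch (59.09 to 460.2), and its log2 fold change was -0.14 ± 0.40, and -0.31 without the 3 libraries. PLIN2 had a median of 101.0 CPM on control (80.65 to 209.2) and 90.53 CPM on starch (59.15 to 148.7). Its log2 fold change of -0.30 ± 0.19 had the narrowest interval of the members (-0.69 to 0.08), and was -0.17 without the 3 libraries. Of the members, only FABP2 and PLIN2 lay on the same side of 0 in the main fit, in all 11 other settings and in all 21 fits that left out 1 piglet. From the wider list described below, APOE, ABCA1, PPARG, ACSL3, SURF4, MGLL and SLC27A4 also did so. These fits share most piglets, and a kept sign does not set FABP2 and PLIN2 apart. On log2 FPKM with limma, the estimates of APOA4, APOA1, MTTP and DGAT1 lay above 0.

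**Figure D3:**
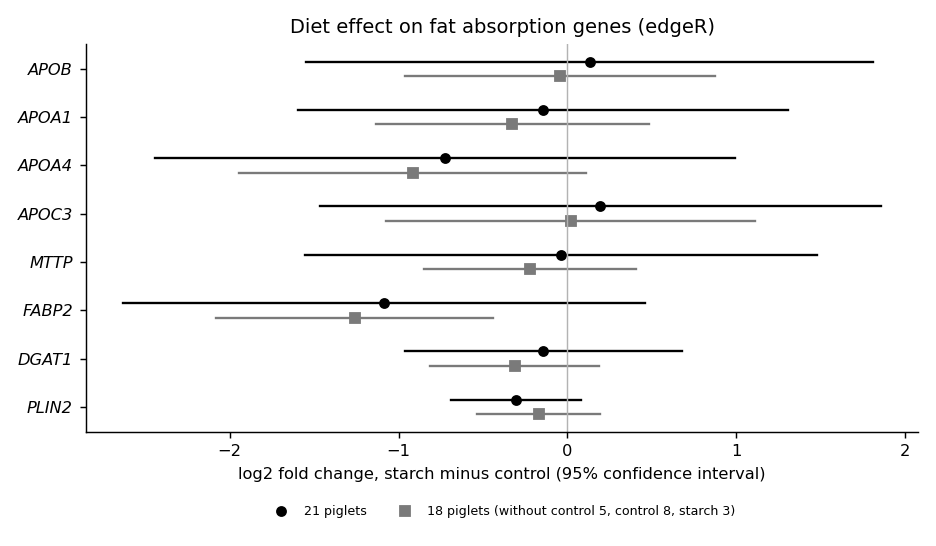
Log2 fold change of each member, starch minus control, with its 95% confidence interval from edgeR, over all 21 piglets (black) and over 18 without control 5, control 8 and starch 3 (grey). Intervals narrow when the 3 libraries are left out, and only that of FABP2 over 18 piglets lies wholly below 0.

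The general epithelial markers summed to between 2936 and 6881 CPM on control and between 2474 and 5869 CPM on starch, and the enterocyte markers to 1446 to 19280 and 1512 to 14737 CPM. The general epithelial score of each piglet was the mean log2 CPM of its 7 markers, less the average of that mean over the 21 piglets. With this score as a covariate, 4 members were above 0 and 4 below. That score was high in control 5, control 8 and starch 3, at 0.403, 0.987 and 0.573, where 2 of its 7 markers lay above all other piglets. Starch 4 (0.529) and starch 11 (0.457) were also high. Over all 21 piglets the score had r of -0.754 with APOB and 0.724 with PLIN2. The covariate therefore partly marks the 3 libraries, and cannot be read as an adjustment for epithelial content alone. Of the 50 genes of the wider list, none passed the test, 16 were above 0 and 34 below (median log2 fold change -0.07), and none had an unadjusted p under 0.05. Without the 3 libraries 14 were above and 36 below (median -0.14, beside 0.02 for all genes), with SLC27A4 and CREB3L3 at an unadjusted p under 0.05. These signs are not independent where genes vary together.

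The gene of each role with the smallest unadjusted p was as follows, with none past the test. For fatty acid uptake it was SLC27A4, a fatty acid transport protein of enterocytes, at 494.8 ± 297.8 CPM on control (SD, n = 10) and 400.2 ± 195.7 CPM on starch (SD, n = 11), a log2 fold change of -0.31 ± 0.47 (SE). ACSL3, which activates fatty acids to acyl-CoA at droplets and the endoplasmic reticulum, was at 819.4 ± 506.4 and 583.9 ± 360.8 CPM (log2 fold change -0.49 ± 0.49), and only 1 starch piglet was above the control median. ABCA1, the exporter that lipidates apolipoprotein A-I, had a log2 fold change of -0.43 ± 0.30, also with 1 starch piglet above the control median.

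DGAT2, the second triglyceride-forming acyltransferase, gave -0.41 ± 0.52, and 0.03 without the 3 libraries. SURF4, a cargo receptor for lipoproteins, gave -0.10 ± 0.13, and MGLL, the monoglyceride lipase, -0.14 ± 0.20. APOE, an apolipoprotein that is also made by macrophages, gave 0.74 ± 0.50, and 0.10 without starch 5. In starch 5 APOE was at 1415 CPM, where the next starch piglet was at 477.1 CPM. PPARG gave -0.56 ± 0.42, and -0.09 without the 3 libraries, in which it was high.

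Differences between animals were large for most members and did not rest on the 3 libraries alone. Over 21 piglets the SD of log2 CPM was 3.12 for APOB, 3.03 for APOA4, 2.86 for MTTP, 2.84 for APOC3, 2.70 for FABP2 and 2.45 for APOA1, where the median tested gene had 0.45. Over the 18 piglets it was 1.26 for APOC3, 1.15 for FABP2, 1.09 for APOA4, 1.04 for APOB and 0.98 for APOA1, between the 96.4 and 98.4 percentiles of all genes. MTTP (0.71, 88.2 percentile) and DGAT1 (0.56, 75.0 percentile) varied less, and PLIN2 (0.37, 42.2 percentile) varied less than the median gene (0.41).

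Across the 18 piglets the members fell into a set that moved together and 2 genes, FABP2 and PLIN2, with no pair that passed. Log2 CPM of APOB, APOA1, APOA4, APOC3, MTTP and DGAT1 correlated in all 15 of their pairs, with Pearson r from 0.559 to 0.927 and Spearman rho from 0.583 to 0.946. All 15 passed 0.05 after Benjamini-Hochberg adjustment over the 28 pairs (permutation tests, 100000 resamples, two-sided). The set was formed after these values were seen. The share of all gene pairs that correlate as strongly was not computed, so the pairs do not show a trait particular to these genes. APOB and MTTP had r of 0.927 and rho of 0.905 (both adjusted p = 9.33e-05), and r of 0.936 without the 2 piglets farthest from the median of APOB. The raw permutation p of this pair, 1e-05, is the smallest that this number of resamples can give. The weakest of the 15 after leaving out the 2 farthest piglets was APOB with APOC3, at 0.45. The values of 1 piglet come from 1 library, whose composition they share.

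The 6 pairs of FABP2 with that set had r from 0.176 to 0.482, and 0 passed the adjustment. With APOB, FABP2 had r of 0.176 (adjusted p = 0.506) and rho of 0.115 (adjusted p = 0.674), and r of -0.133 without the 2 farthest piglets. In FPKM the ratio of FABP2 to APOB ran from 0.505 in starch 5 to 24.02 in control 2, with a median of 12.58 in the 8 controls and 5.671 in the 10 starch piglets. Starch 5 had the highest APOB of all animals and the second lowest FABP2 of the 18. PLIN2 had r from -0.344 to 0.257 with the other 7 members, and 0 of its pairs passed. The difference between the APOB pair with MTTP and that with FABP2 was not tested.

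**Figure D4:**
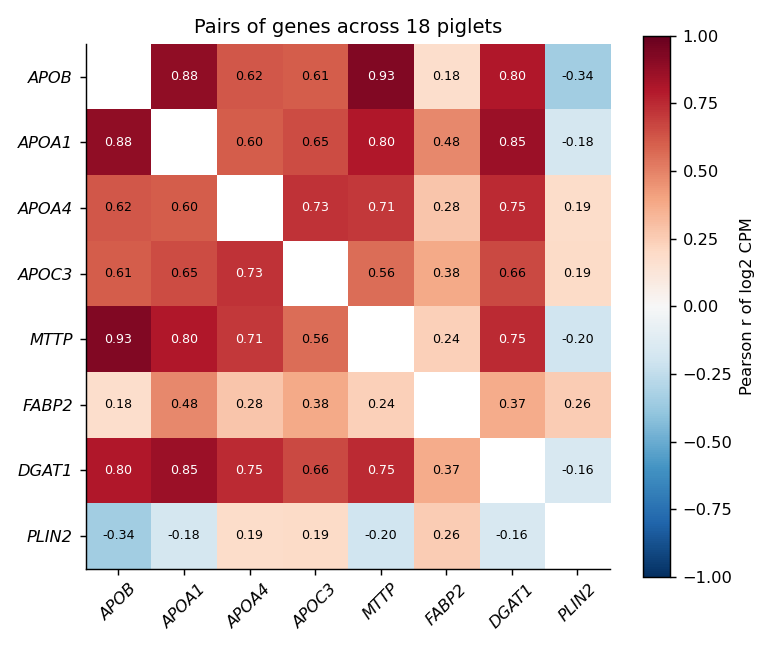
Pearson r of log2 CPM between each pair of members over 18 piglets (without control 5, control 8 and starch 3), with red for positive and blue for negative values. The 6 genes APOB, APOA1, APOA4, APOC3, MTTP and DGAT1 form the red cells, and the rows of FABP2 and PLIN2 are pale.

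**Figure D5:**
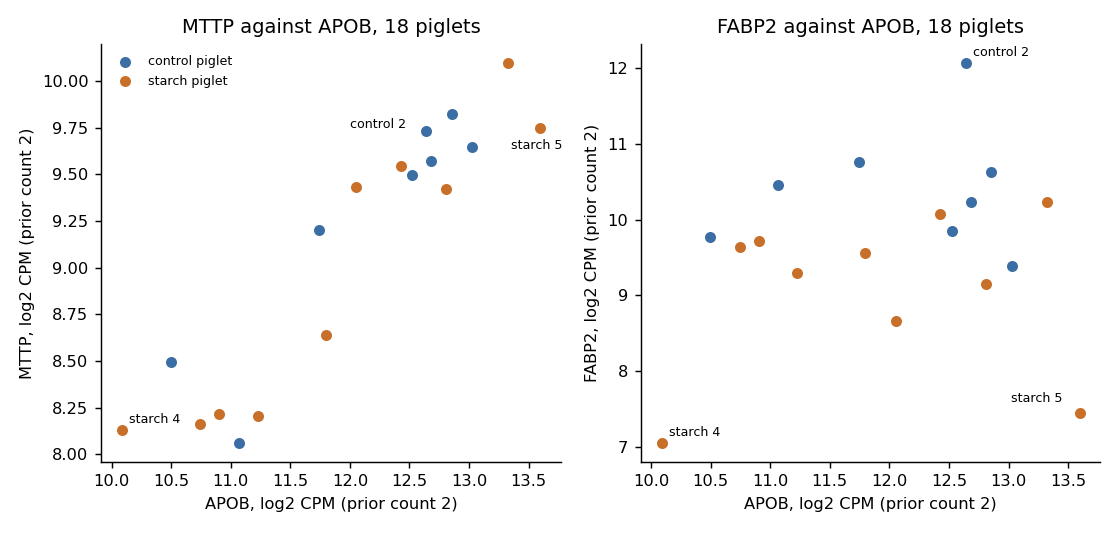
Log2 CPM of MTTP (left) and FABP2 (right) against APOB in 18 piglets, by diet, with a prior count of 2. MTTP follows APOB closely (r of 0.927), whereas for FABP2 the named piglets starch 4, starch 5 and control 2 lie far from the others.

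The proportions between members also varied from piglet to piglet. Over the 18 piglets the FPKM ratio of APOA4 to APOA1 ran from 0.0305 in control 4 to 0.427 in starch 4, with a median of 0.0632. The ratio of APOC3 to APOA1 ran from 0.0132 in control 9 to 0.109 in starch 11. MTTP relative to APOB moved less, from 0.317 in starch 5 to 1.154 in starch 4, and its medians were 0.556 on control and 0.586 on starch. The APOA1 level is the sum of 3 transcripts, of which the authors' estimate divided the counts equally between a pair of 798 coding bases. APOC3 was divided in the same way between 2 transcripts of 291 coding bases, so the gene sums are used throughout. For APOB, a transcript of 11643 coding bases held 83.02% of the counts and one of 13722 held 16.98%.

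Member levels were set against the general epithelial score, the smooth muscle score and FABP6 over the 18 piglets, 24 relations in all. After adjustment 0 of the 24 passed, with a smallest adjusted p of 0.229 (permutation tests, 100000 resamples). The call depended on the unit, since on log2(FPKM + 0.5) 6 of the 24 passed by Pearson r, those of APOB, APOA1 and MTTP with the epithelial and the smooth muscle score. On log2 CPM the strongest was MTTP with the smooth muscle score at r of -0.533 and rho of -0.525 (raw p = 0.0239 and 0.0274, adjusted p = 0.229 and 0.311), and r was -0.352 without the 2 farthest piglets. APOB had r of -0.489 with the epithelial score (rho -0.478, adjusted p = 0.229 and 0.311) and r of -0.214 without the 2 farthest. Without these piglets r with that score turned positive for FABP2 (-0.047 to 0.646), APOA1 (-0.412 to 0.103), DGAT1 and APOA4. Its sign stayed for APOB, MTTP, APOC3 and PLIN2. With FABP6, whose level rises toward the end of the small intestine, APOB had r of -0.353 and rho of -0.313 (adjusted p = 0.359 and 0.537), and r of -0.315 without the 2 farthest. Over all 21 piglets r with FABP6 was positive for 7 members (0.682 to 0.83), all but PLIN2 (-0.299). Those values rest on the 3 libraries that lie apart on both measures, and no pooled relation is drawn from them.

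The genes whose pattern over the 18 piglets was most like the mean of the members (centred log2 CPM) were ranked by Spearman rho. XPNPEP1 came first at 0.922, followed by AKR1E2 (0.913), ABHD6 (0.911), CRTC1 (0.907), POLR1E (0.893), SIDT2 (0.886), NAGS (0.882) and SLC39A5 (0.876). Over 21 piglets their rho lay between 0.896 and 0.945 except for CRTC1, at 0.522. Among the members, DGAT1 (0.899) and APOA1 (0.897) were closest to the mean that contains them, FABP2 was at 0.542 and PLIN2 at -0.06. Of all tested genes, 60 had a higher rho than APOB, 55 than APOA4, and 28 than APOC3 and MTTP.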

How the data were processed

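The authors deposited 1 file per piglet with, per the file headers, a row per transcript holding an expected count (an estimate that need not be whole, not normalised) and an FPKM value, which the authors had scaled for length and for depth. The submitters' processing notes name HISAT and DESeq2 without version or role, and for the genome build and the counting program the entry is: not given in the sources used here. Lengths are coding lengths (99.96 to 99.97% are multiples of 3). Transcripts not listed for a piglet were taken as 0.

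Expected counts were summed per gene and rounded. Of 18661 genes 14276 (76.5%) matched a symbol. Genes were tested with edgeR 4.0.16 (R 4.3.3; TMM, filterByExpr with minimum count 10 and minimum total 15, diet only). CPM values are TMM-scaled, and log2 CPM has a prior count of 2. Alternatives used DESeq2 1.42.0 and limma 3.58.1 on log2(FPKM + 0.5), + 0.1 and + 1 (FPKM of at least 1 in 10 piglets). Correlations used scipy 1.17.1. Depth limits the members only in the 3 libraries set apart, where counts were low, and floors cover counting error only. The edgeR test was also run on simulated counts, drawn gene by gene from the means and dispersions of its fit to these data. That simulation held no libraries set apart, and its outcome is not reported here.

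The members, lists and tests were chosen with earlier results of these data known. Named are all members, the gene of each role of the wider list with the smallest unadjusted p, and the 8 genes most like the members' mean. The genes below or above all of the 18 piglets, the flagged piglets and the 28 pairs were chosen after their values were seen. Not found were CD36, MOGAT3, MIA2, PLTP, APOC2, APOA5 and TM6SF2, and APOH and HILPDA did not pass the filter. Not every gene of the lists is reported here.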

Additional observations from a re-analysis of the deposited data

Results flagged for a closer look

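In 8 groups, the values of each member in the 10 control piglets, the gap of the highest or lowest piglet to its neighbour was set against the whole range, by Dixon's test at its 95% critical value. For normally distributed values chance alone marks about 1 in 20 such groups, and 8 groups from the same 10 piglets are not independent. The gaps were taken on CPM. Groups of 11 were not examined. APOA4 in control 6, at 4668 CPM, had a gap of 0.710 of the range. FABP2 in control 2, at 4297 CPM, had a gap of 0.595 of the range. On log2 CPM both gaps are a smaller part of the range, so the flags depend on the unit. There the highest, next and lowest control piglets were at 12.189, 10.403 and 0.737 for APOA4. For FABP2 they were at 12.069, 10.768 and 3.004. Control 6 also had the highest APOA1 (16550 CPM), APOC3 (243.6 CPM) and MTTP (906.9 CPM) of the control piglets, and control 2 the highest DGAT1 (578.8 CPM).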

How the results depend on the processing

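The count of diet calls was 0 for all genes, for the members and for the wider list under all 11 other settings and all 21 fits without 1 piglet. At an unadjusted p under 0.05 the number of genes ran from 117 to 526, against 174. FABP2 and PLIN2 kept their sign throughout, as did APOE, ABCA1, PPARG, ACSL3, SURF4, MGLL and SLC27A4 of the wider list. Leaving out control 5, control 8 and starch 3 turned the log2 fold change of APOB to -0.044 and of DGAT2 to 0.027. With limma on log2 FPKM plus 0.5, 0.1 and 1, APOA4 came to 0.12, 0.10 and 0.12, APOA1 to 0.15 in all 3, MTTP to 0.31, 0.29 and 0.31, and DGAT1 to 0.039, 0.041 and 0.037. With the epithelial score as a covariate APOA1 was at 0.054 and MTTP at 0.22. That score was high in control 5, control 8 and starch 3. With the replicate block APOA4 was at 0.29 and MTTP at 0.18, and 0 genes were called with 188 at an unadjusted p under 0.05. No pairing by replicate number was seen. The correlation of same-numbered deviations ran from -0.337 to 0.485, over 0.1 in 4 of 10 pairs, and 0 piglets correlated best with their own number. A weak effect shared within a pair could be missed by correlations over all tested genes. Leaving out single piglets moved APOB between -0.13 and 0.31, APOA4 between -1.04 and 0.077, APOA1 between -0.32 and 0.084, APOC3 between -0.065 and 0.60, MTTP between -0.22 and 0.10 and DGAT1 between -0.28 and 0.00. The cause was not tested.

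Of the relations with markers, that of APOC3 with the epithelial score was -0.64 over 21 piglets and -0.21 on log2(FPKM + 0.5). Those with FABP6 over 21 piglets were 0.81 for APOB, 0.80 for APOA4 and APOA1, 0.78 for APOC3, 0.83 for MTTP and FABP2 (0.012 over 18 piglets), 0.68 for DGAT1 and -0.30 for PLIN2. On log2(FPKM + 0.5) over 18 piglets APOB, APOA1 and MTTP passed by Pearson r with the epithelial score (-0.71, -0.71 and -0.58) and with the smooth muscle score (-0.67, -0.63 and -0.69). By Spearman rho only APOB with both scores and MTTP with the smooth muscle score passed, and APOA1 with both scores (adjusted p = 0.143) and MTTP with the epithelial score (adjusted p = 0.0974) did not.

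Counts of 0 to 9 for APOC3 in the 3 libraries limit its fold there. The folds of APOA4 and MTTP in starch 3 are limited in the same way, by 6 and 7 counts. The 95% intervals of the diet estimates ran from -0.69 to 0.08 for PLIN2, the narrowest, and from -2.44 to 0.99 for APOA4, the widest.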
